A study of Mus musculus with 4 samples.

Results

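The genes described are Tmem176a and Tmem176b, a pair of small membrane proteins that cross the membrane several times, and 5 related genes of the MS4A family, Ms4a4b, Ms4a4c, Ms4a6b, Ms4a6c and Ms4a6d. They were chosen by name with the JQ1 and DMSO values of these arrays already known, so their differences between the groups are given as a description with no test. Of the 7 genes, 6 had a row of the array annotated to that gene alone, out of 14860 named genes in all. The row of Ms4a4c is shared with another gene, and Ms4a4c was not analysed here.

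The samples were naive CD4 T cells of C57BL/6 mouse spleens, more than 90% pure per the labels, activated through CD3 and CD28 in the presence of TGF-β1, IL-6 and IL-23 with IFN-γ and IL-4 blocked, conditions that favour the IL-17-producing helper T cells named TH17. One group of 2 samples received JQ1 at 150 nM, an inhibitor of BET bromodomain proteins, which read acetylated histones, and a control group of 2 received its solvent DMSO. All 4 are labelled 48 hours, although the treatment text also gives a longer culture. RNA was read on Affymetrix exon arrays, 1 per sample. Whether the replicates were separate mice or cultures is not given in the sources used here, so p-values cover only the sample-to-sample spread seen here, possibly a technical one, and the number of arrays limits the precision.

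MS4A proteins are relatives of CD20, the B cell antigen encoded by Ms4a1, and the TMEM176 proteins are more distant members of the same superfamily. MS4A4B is found on mouse T cells, where it has been described as an adaptor beside the co-stimulatory receptor GITR, and Ms4a6c and Ms4a6d are better known from myeloid cells. Tmem176a and Tmem176b are known from dendritic cells and from TH17 cells, and mouse TMEM176B has been described as a cation channel that restrains the NLRP3 inflammasome.

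The start regions of the Tmem176 pair are shown because both genes lie head to head and share 1 short stretch of DNA. The sequences are RefSeq promoter windows of the mouse build GRCm38.p6, from 250 bases before a transcription start to 50 bases from it on. There are 2 such starts of Tmem176a and 3 of Tmem176b, and the nearest pair lies 109 bases apart on opposite strands. The other pairs lie 282 to 668 bases apart, and none of them lies within one Tmem176a window. The window of the Tmem176a start of the nearest pair, at chr6:48841233-48841532 on the + strand, holds both of its starts. Capitals mark the 110 bases from the Tmem176b start to the Tmem176a start, both included.
Tmem176a and Tmem176b: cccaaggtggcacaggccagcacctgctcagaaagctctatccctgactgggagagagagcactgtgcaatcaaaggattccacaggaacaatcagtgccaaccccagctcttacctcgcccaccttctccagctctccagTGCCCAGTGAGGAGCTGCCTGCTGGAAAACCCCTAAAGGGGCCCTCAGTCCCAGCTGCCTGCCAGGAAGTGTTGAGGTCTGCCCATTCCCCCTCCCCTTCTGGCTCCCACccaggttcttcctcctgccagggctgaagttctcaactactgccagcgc

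The windows of 3 MS4A genes on the + strand of chromosome 19 are given beside it, since these genes lie in 1 cluster. Whether their changes with JQ1 differed from each other was not tested. Capitals mark a match to the AP-1 letters in Ms4a4b (chr19:11443308-11443607), and in Ms4a6b (chr19:11518309-11518608) and Ms4a6c (chr19:11469118-11469417) the longest run of bases the windows of these paralogs share, 48 bases.
Ms4a4b: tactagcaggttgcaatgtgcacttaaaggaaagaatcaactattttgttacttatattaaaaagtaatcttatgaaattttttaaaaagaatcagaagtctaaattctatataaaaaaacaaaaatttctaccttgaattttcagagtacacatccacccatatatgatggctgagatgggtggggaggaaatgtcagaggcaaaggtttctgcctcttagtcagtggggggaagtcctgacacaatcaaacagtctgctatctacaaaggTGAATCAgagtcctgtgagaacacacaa
Ms4a6b: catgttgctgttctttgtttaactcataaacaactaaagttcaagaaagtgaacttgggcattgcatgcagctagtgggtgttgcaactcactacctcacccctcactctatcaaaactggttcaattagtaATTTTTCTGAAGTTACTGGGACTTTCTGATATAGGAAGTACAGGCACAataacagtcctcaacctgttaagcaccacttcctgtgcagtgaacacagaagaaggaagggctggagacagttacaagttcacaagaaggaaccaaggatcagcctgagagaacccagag
Ms4a6c: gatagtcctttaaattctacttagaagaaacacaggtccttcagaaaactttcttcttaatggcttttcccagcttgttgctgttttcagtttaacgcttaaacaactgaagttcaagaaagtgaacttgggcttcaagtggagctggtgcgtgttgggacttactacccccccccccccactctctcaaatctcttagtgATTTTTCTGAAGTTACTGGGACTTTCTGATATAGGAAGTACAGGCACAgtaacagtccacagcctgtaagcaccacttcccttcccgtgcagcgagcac

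In a local alignment, the Ms4a6b and Ms4a6c windows were identical at 182 of 222 columns (82.0%), and the shared run left 70 bases between its end and the start of Ms4a6b, and 1 base in Ms4a6c. Between either of them and the window of Ms4a4b the longest shared run was 7 and 9 bases. The letters of 3 motifs were searched on both strands in the 9 windows of the 6 listed genes that have one. They were TGANTCA (AP-1), TTCNNNGAA (STAT) and the interferon-stimulated response element. The Ms4a4b window held the 1 match, an AP-1 match that begins 22 bases after the first transcribed base. Of 32851 mouse promoter windows of the same length, 7.81% held TGANTCA, 8.30% TTCNNNGAA and 3.44% the interferon-stimulated element. These matches describe letters and say nothing of binding.

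Both Tmem176 genes were lower with JQ1, without overlap of the groups. Ms4a4b was higher on both JQ1 arrays, and Ms4a6b, Ms4a6c and Ms4a6d differed little between the groups. So of the 6 genes 2 were lower and 2 higher without overlap of the groups, and 2 overlapped. Over all genes, 31.4% were lower and 10.0% higher without overlap. Changes are log2 values with JQ1 minus those with DMSO. Their median was 0.05 over the 6 genes and -0.09 over all 14860.

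Tmem176a (Entrez gene 66058) had log2 signals of 7.05 and 6.61 on the DMSO arrays and 5.33 and 5.44 on the JQ1 arrays. The 2 JQ1 values lay close together and below both controls, with differences from -1.72 to -1.17 over the 4 pairs of arrays. The means were 6.83 ± 0.31 (SD, n = 2) with DMSO and 5.39 ± 0.078 with JQ1, a change of -1.44 in the deposited values.

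Tmem176b (Entrez gene 65963) read 7.19 and 6.99 with DMSO and 5.83 and 5.37 with JQ1. Here the DMSO arrays were the closer pair, and JQ1 replicate 2 was the lowest of the 4. The means were 7.09 ± 0.15 (SD, n = 2) and 5.60 ± 0.33, a change of -1.49 in the deposited values. Both changes were beyond 2-fold, as were those of 1.02% of all genes in the lower direction. Since the pair was chosen with this contrast known, nothing is read from that share.

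The deposited values carry no detection calls, so 801 olfactory and vomeronasal receptor genes, which T cells are not known to use, served as a reference for dim signals, chosen with the values known. The 95th percentile of their means was 5.79. The DMSO means of Tmem176a and Tmem176b lay above it and their JQ1 means below it, with JQ1 replicate 1 of Tmem176b just above it at 5.83. With the reference in place of the dim JQ1 means, the DMSO mean was 2.05-fold above it for Tmem176a and 2.46-fold for Tmem176b. These figures compare means and take no account of the spread between replicates. The sizes of both changes are limited by this dim range and do not show that the genes changed equally. In RNA of whole samples, fewer cells with a transcript and less of it per cell cannot be told apart.

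Ms4a4b (Entrez gene 60361) went the other way, with 5.88 and 5.41 on the DMSO arrays and 6.56 and 6.39 on the JQ1 arrays. DMSO replicate 2 was the lowest, and the groups were separated by at least 0.51. The mean was 5.65 ± 0.34 (SD, n = 2) with DMSO, under the reference, and 6.48 ± 0.12 with JQ1, above it, a change of 0.83 in the deposited values. With the reference in place of the dim DMSO mean, the JQ1 mean was 1.61-fold higher. This is no lower limit, since DMSO replicate 1 lay above the reference. Of the 4 measured MS4A members it had the largest change, in the deposited values and under each of 3 other scalings.

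Ms4a6b (Entrez gene 69774), a close relative found on T cells, read 9.25 and 8.998 with DMSO and 9.06 and 9.62 with JQ1. The groups overlapped, since JQ1 replicate 1 lay between the controls and only JQ1 replicate 2 stood above them. The mean was 9.12 ± 0.18 (SD, n = 2) with DMSO and 9.34 ± 0.39 with JQ1. Its change of 0.22 was -0.06 without JQ1 replicate 2 and 0.09 without DMSO replicate 2, so it rests on single arrays.

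Ms4a6c (Entrez gene 73656) was the steadiest, at 7.09 and 7.11 with DMSO and 7.18 and 7.16 with JQ1. The groups did not overlap, but the change was only 0.07, or 1.05-fold. The 3 other scalings gave 0.14 to 0.19.

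Ms4a6d (Entrez gene 68774) was dim on every array, at 3.69 and 4.03 with DMSO and 3.99 and 3.77 with JQ1. All of these values lay below the reference, so they do not show whether the gene is expressed. The change of 0.02 was -0.05 after a further quantile normalization. Ms4a6b, Ms4a6c and Ms4a6d are paralogs, and how far their probes pick up each other's transcripts was not tested.

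**Figure D1:**
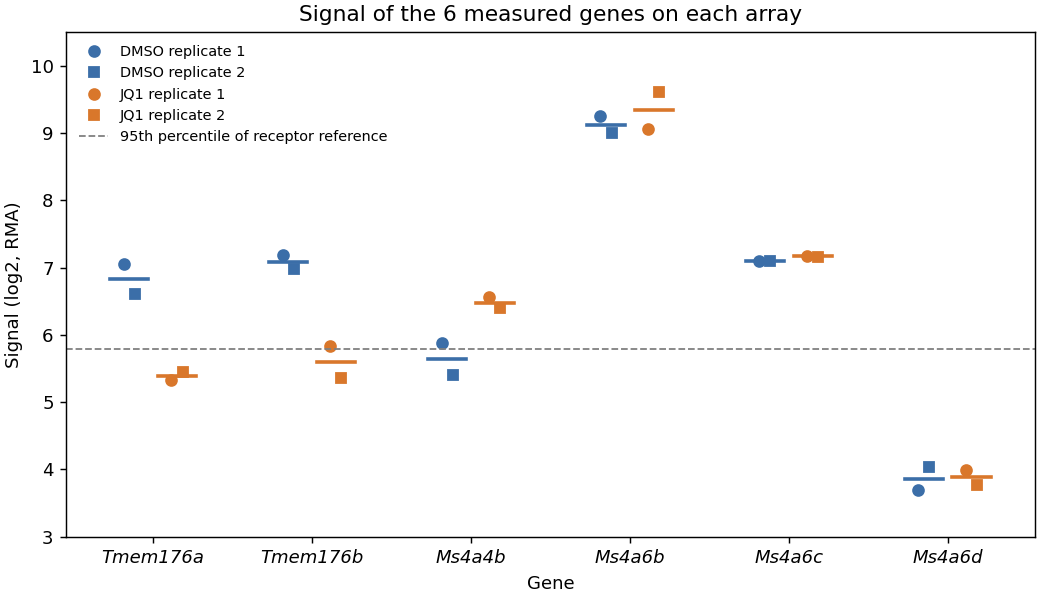
Log2 signal (y axis) of the 6 measured genes (x axis) on the 2 DMSO (blue) and 2 JQ1 (orange) arrays; circles are replicate 1, squares replicate 2, bars group means, and the dashed line is the reference of 5.79. The means of Tmem176a and Tmem176b lie below the line with JQ1, with 1 array of Tmem176b at 5.83, and Ms4a4b goes from around it to above it. The 3 Ms4a6 genes stay near their control values.

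How much of each difference was shared by genes at large depends on the scaling. The median change of all genes was -0.09 in the deposited values and 0.03 after each array was centred on the median of its named genes. Relative to the deposited median, Tmem176a was at -1.36, Tmem176b at -1.40 and Ms4a4b at 0.92. Over a further quantile normalization, the centring and cyclic loess, Tmem176a ranged from -1.41 to -1.33, Tmem176b from -1.44 to -1.37 and Ms4a4b from 0.87 to 0.95. With any 1 array left out these 3 genes ranged from -1.66 to -1.22, -1.72 to -1.25 and 0.59 to 1.07. Their groups did not overlap, so leaving out 1 array could change the size but not the direction.

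For genes outside the 6, each was tested with limma over the whole table. One gene, the cytotoxic protease gene Gzmb, passed the threshold of 0.05 after Benjamini-Hochberg adjustment (0.00673% of genes), at -3.42 with a limma adjusted p of 0.0238. Hence the counts below use an unadjusted p below 0.05, here named a call. Of all genes 8.26% were called lower and 1.72% higher. The lower share of the calls was 82.8%, against 74.2% after a further quantile normalization, 54.3% after centring and 59.6% after cyclic loess. The lists below were also chosen with earlier results of these data known. None of their genes passed the adjusted threshold in this fit, which does not hold for every alternative described at the end.

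Of the 10 genes beside the Tmem176 pair, 3 were called higher and 1 lower. With the row of each gene taken in chromosomal order, the 5 nearest on one side were GIMAP genes, which encode GTP-binding proteins of lymphocyte survival. Gimap6 went from 7.81 ± 0.018 (SD, n = 2) to 8.42 ± 0.29, a change of 0.61, Gimap5 was at 0.51 and Gimap3, the nearest, at 0.43. These 3 were called higher (limma adjusted p 0.403, 0.469 and 0.445). Gimap7 was called lower at -0.58, a call lost after centring and cyclic loess, and Gimap1 was at 0.07. In the whole list of 8 GIMAP genes, 3 were called higher and 1 lower, with a median change of 0.08. Without DMSO replicate 1 or JQ1 replicate 2 none was called higher in limma, and without DMSO replicate 2 only Gimap5 was.

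On the other side, Aoc1, a diamine oxidase gene, had a change of -0.51 with both JQ1 arrays below both DMSO arrays, and was not called (limma adjusted p = 0.569). Doxl1 was at 0.01, Svs1 at -0.13, Gpnmb at 0.09 and Igf2bp3 at 0.10, and all 5 genes of that side lay under the reference. The 10 neighbours had a median change of 0.08. Whether the pair differed from its neighbours was not tested, since the pair was chosen on this contrast.

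**Figure D2:**
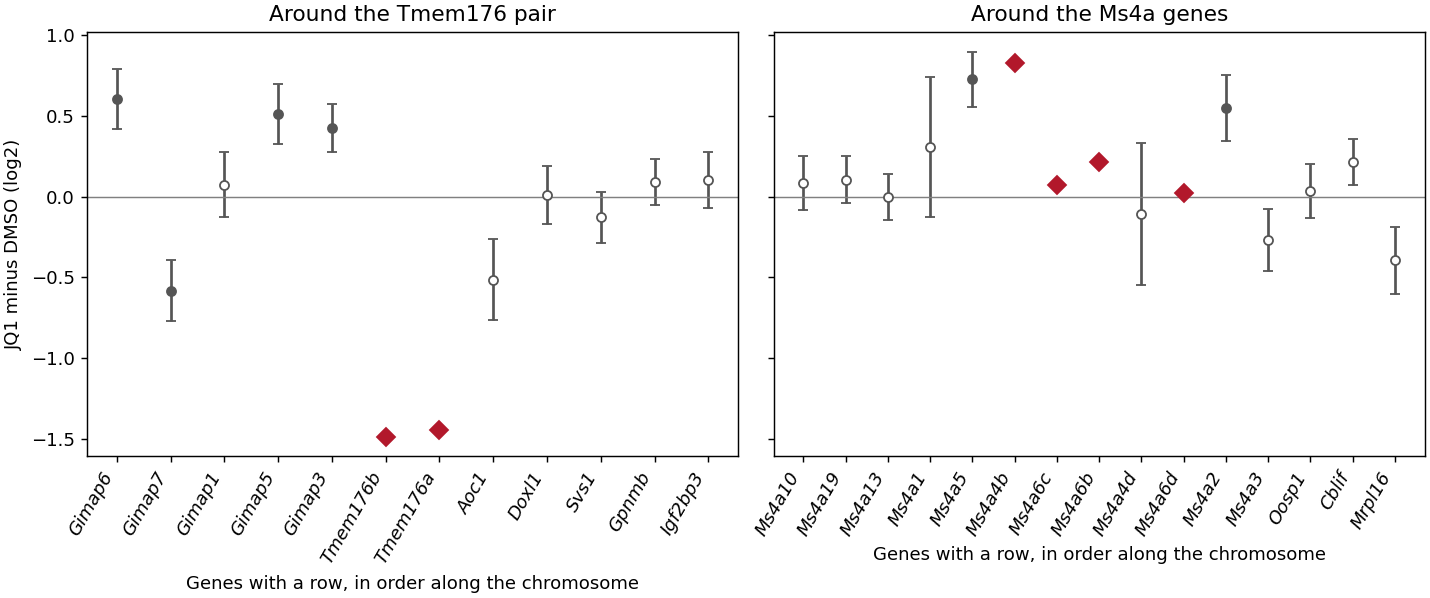
Change with JQ1 (log2, y axis) for genes with a row in chromosomal order (x axis) around the Tmem176 pair and around the Ms4a genes. Diamonds are the chosen genes, circles their neighbours with the SE of limma, filled where the unadjusted p was below 0.05; the Tmem176 pair stands near -1.5 between neighbours from -0.58 to 0.61.

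In the MS4A cluster, Ms4a6c and Ms4a6b, next to Ms4a4b, lay above the reference in both groups, while the other family genes measured were dim. Of the CD20-like family outside the chosen genes, 7 of 16 listed symbols had a row, and the means of all 7 lay under the reference in both groups. None was called lower in limma and 2 were called higher, with a median change of 0.09. Ms4a5 was at 0.73, from 2.82 and 2.95 with DMSO to 3.46 and 3.77 with JQ1, and Ms4a2, the β chain of the IgE receptor of mast cells, at 0.55. Their limma adjusted p were 0.337 and 0.478. Ms4a5 was still called in limma with a variance trend and with the replicate number as a block, while Ms4a2 was called with neither. With any 1 array left out the change of Ms4a5 lay between 0.57 and 0.88. Signals this dim do not show that either gene is expressed.

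Ms4a1, the CD20 gene, was at 0.30, with JQ1 arrays at 4.64 and 3.33 on either side of the controls, and was called higher without JQ1 replicate 2. Ms4a3 was at -0.27, Ms4a10 at 0.09 and Ms4a13 at 0.000083. Ms4a4d, which lies between Ms4a6b and Ms4a6d, was at -0.11, and its replicates differed by more than its groups did, at 4.42 and 5.40 with DMSO and 4.32 and 5.29 with JQ1. The sign of the change of Ms4a4d turned after centring and that of Ms4a13 after a further quantile normalization and cyclic loess. Ms4a19, an MS4A gene that the family list left out, was at 0.11 and under the reference in both groups. Beyond the family, Oosp1 was at 0.04, Cblif at 0.21 and the mitochondrial ribosome gene Mrpl16 at -0.39. Of the 11 genes around and among the Ms4a members, 2 were called higher and none lower in limma.

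The genes of the pathways around the pair behaved in different ways. In a TH17 list, which holds genes known to be lower in these samples and is no independent evidence, 10 of 12 measured genes were called lower and none higher, with a median change of -0.79. Il17f was at -3.41, the chemokine receptor gene Ccr6 at -2.68 and the IL-1 receptor gene Il1r1 at -1.78 (limma adjusted p 0.0901, 0.148 and 0.175), against -1.44 and -1.49 for the Tmem176 pair.

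Among 8 genes of the NLRP3 inflammasome, which TMEM176B is described to restrain, 1 was called lower and 1 higher, with a median of -0.07. Casp1, the protease at its core, was at -0.51 with both means under the reference, a call lost without DMSO replicate 1 and under the centring and cyclic loess, and Txnip, an NLRP3 partner and glucose-regulated inhibitor of thioredoxin, was at 0.69. Nlrp3 itself was at 0.05 and under the reference in both groups. Without DMSO replicate 2 or JQ1 replicate 1 neither Casp1 nor Txnip was called. With the replicate number as a block Casp1 was not called, and Gsdmd, which encodes the pore protein gasdermin D, was called lower at -0.48. The change of Gsdmd without DMSO replicate 1 was -0.72.

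For class II antigen presentation, a process in which Tmem176 genes have been studied in dendritic cells, 3 of 5 measured genes were called lower and none higher, with a median of -0.45. Ctss, the protease that trims the invariant chain, was 1.98-fold lower, from 10.04 ± 0.22 (SD, n = 2) to 9.05 ± 0.13. H2-DMa, a peptide-loading chain, was at -0.72 and the class II chain gene H2-Ab1 at -0.45, a call lost after centring. The count was 2 without any 1 of 3 arrays and 4 without DMSO replicate 2.

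GITR, the receptor beside which MS4A4B is described, is encoded by Tnfrsf18. It had signals of 9.78 and 9.36 with DMSO and 8.94 and 9.16 with JQ1, a change of -0.52 where Ms4a4b was at 0.83, and its call was lost after each of the 3 scalings and with the replicate number as a block. With 1 array left out it was called only without DMSO replicate 2. Of the 7 measured co-stimulatory TNF family genes 3 were called lower and none higher, with a median of -0.62. The others called were Tnfsf9, the ligand of 4-1BB, at -1.66 and Tnfsf4, the OX40 ligand, at -0.64. Without DMSO replicate 1 only Tnfsf9 was called, and Tnfsf9 was called with any 1 array left out.

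Other membrane proteins that cross the membrane 4 times, the tetraspanins, had 2 of 11 called lower, Cd9 at -0.76 and Cd81 at -0.56, and none higher in the deposited values, with a median of -0.03. Cd82 was at 0.26 and called higher after each of the 3 scalings. Without JQ1 replicate 1 none of the 11 was called in limma, and 3 were called lower without DMSO replicate 2. Of 7 measured interferon-stimulated genes, 1 was called lower, Bst2 (tetherin) at -0.95, and none higher, with a median of -0.08. The count was 2 without DMSO replicate 1.

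**Figure D3:**
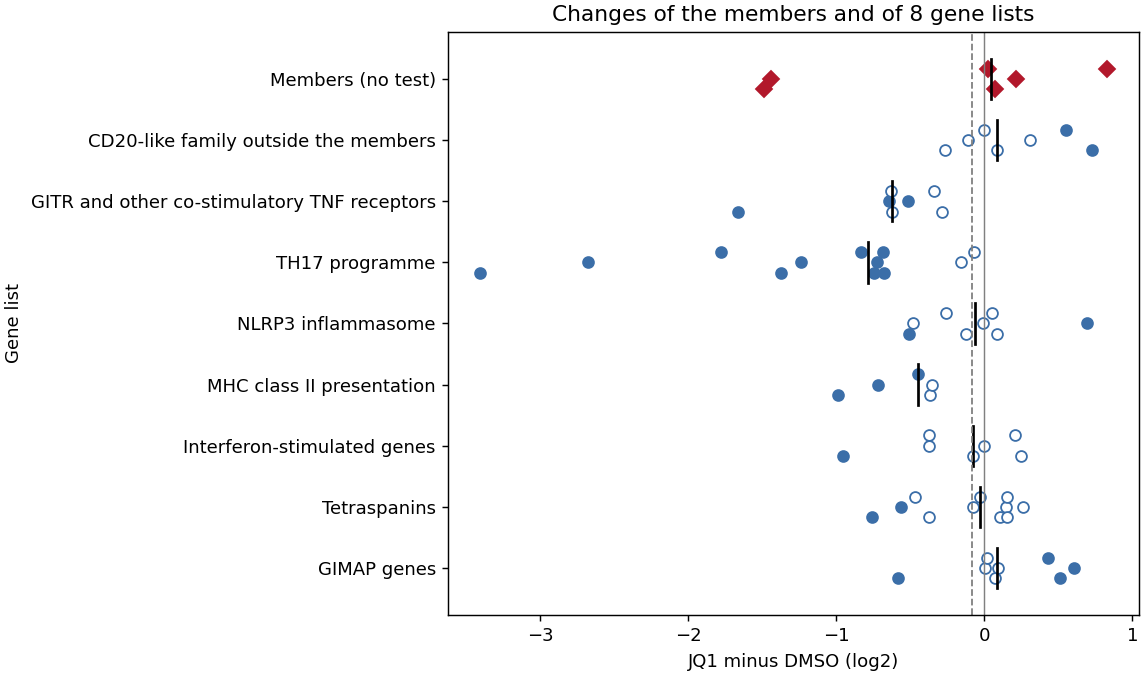
Change with JQ1 (log2, x axis) of the chosen genes (diamonds, no test) and of 8 gene lists (circles, filled where the unadjusted p was below 0.05); short bars are medians and the dashed line the median of all genes. The TH17 list lies to the left with a median of -0.79, while the GIMAP genes and the rest of the CD20-like family centre near 0.

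Markers of the cells were read on the same arrays. All 8 measured T cell markers lay above the reference in both groups, with a mean signal of 10.2 to 10.4 on the DMSO arrays and 10.1 to 10.2 on the JQ1 arrays. The 9 measured monocyte and macrophage markers, cells known for Ms4a6c, Ms4a6d and the Tmem176 genes, averaged 5.13 to 5.28 with DMSO and 5.13 to 5.16 with JQ1. None of them was called in limma, and 2 lay above the reference. The 5 measured dendritic cell markers all lay under it, at a mean of 4.88 to 5.35 with DMSO and 4.94 to 5.17 with JQ1, and none was called in limma, against 1 lower without DMSO replicate 2.

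Some marker genes of other cells moved with the groups. Neutrophil markers averaged 5.35 to 6.11 with DMSO and 6.31 to 6.51 with JQ1, with S100a9 at 5.89 and 7.88 with DMSO and 9.07 and 8.42 with JQ1 and Camp at 0.48. Both were called higher. With 1 array left out, S100a9 was called only without DMSO replicate 2, and Camp in no case in limma. Of the other 3 neutrophil markers S100a8 was at 1.19 with overlapping groups, Elane at 0.07 and Mpo at -0.20. Of 5 mast cell and basophil markers 1 was called lower, Mcpt8 at -1.38, and 1 higher, Ms4a2. Kit was at -0.39, Fcer1a at -0.72 with overlapping groups and Cpa3 at 0.20. Ms4a2 was not called with a variance trend or a replicate block. Without DMSO replicate 2 the change of Kit was -0.55 and that of Fcer1a -1.38. Of 4 natural killer markers 1 was called lower, Klrd1 at -1.73, while Ncr1 and Eomes were at -0.09 and Klre1 at -0.0035. Of the CD8 markers Cd8a was called lower at -0.73, a call lost without DMSO replicate 2 or JQ1 replicate 1. The other CD8 marker, Cd8b1, was at -0.57 with both JQ1 arrays below both DMSO arrays. It was not called in limma over all genes, but was called lower among genes above the median signal. B cell markers averaged 5.25 to 5.42 with DMSO and 5.02 to 5.25 with JQ1, with a median change of -0.25. None was called in limma, but Cd79b at -0.63 was called lower with a variance trend and among genes above the 25th percentile of signal. Its change without DMSO replicate 1 was -0.96. Of the 6 measured B cell markers, 4 were lower and none higher without overlap of the groups, against 31.4% lower and 10.0% higher over all genes. The part of such cells in the values of the Tmem176 and MS4A genes was not tested.

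The genes whose pattern was most like that of Tmem176b were sought among 7275 named genes above the median signal. Left out were the chosen genes, olfactory and vomeronasal receptors, small RNAs and predicted or clone-type symbols. Likeness was the root mean square difference over the 4 arrays, in log2 units, after each gene's DMSO mean was taken away. Closest were Ubxn11 at 0.083 and the Toll-like receptor gene Tlr1 at 0.084, followed by Il17a at 0.12, the deaminase gene Rida at 0.13 and Egln3, an oxygen-sensing prolyl hydroxylase, at 0.14. Their changes ranged from -1.57 for Rida to -1.37 for Il17a. Tmem176a stood at 0.22 from Tmem176b, and 8 of the 7275 genes were nearer. Most like Ms4a4b were the linker histone gene H1f2 at 0.12, Txnip at 0.12, the mitochondrial protein gene Lactb at 0.13, the zinc finger gene Zfp420 at 0.14 and Clybl, a mitochondrial lyase gene, at 0.15. With 4 arrays in 2 groups, likeness mostly reflects a similar change, and it describes these arrays alone.

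**Figure D4:**
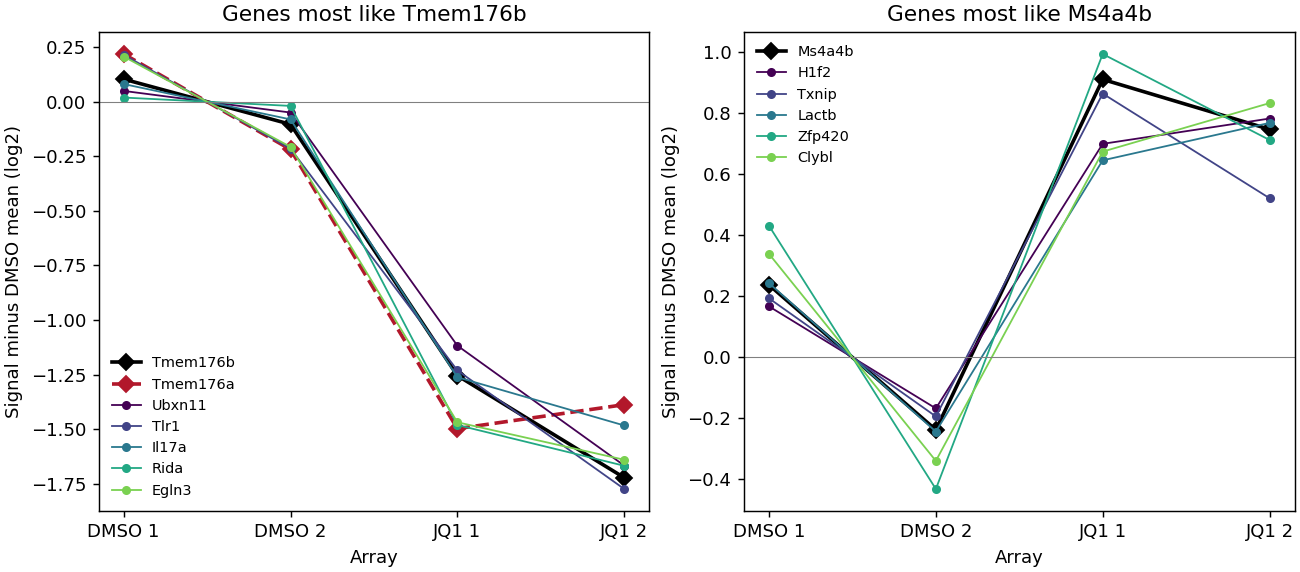
Signal minus the gene's DMSO mean (log2, y axis) on the 4 arrays (x axis) for Tmem176b and Tmem176a with the 5 genes most like Tmem176b, and for Ms4a4b with the 5 most like it. Lines only join the values of one gene; on the left all genes sit more than 1 log2 unit below their DMSO mean on both JQ1 arrays, and on the right all sit above it.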

How the data were processed

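The deposited values are log2 signals which, per the submitters' processing notes, the authors made with RMA in Affymetrix Expression Console. RMA subtracts an estimated background, gives all arrays one distribution and combines probes by median polish. The sources used here give neither tool versions nor what defines a row, and the notes name hg19, a human build, for mouse samples. Per the labels' protocols, the labelled target is sense cDNA, so rows of genes on opposite strands are separate.

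Of 23332 rows, 14996 carried 1 gene symbol in the platform annotation. Several rows named the same gene for 135 genes, of which the brightest on average was kept, giving 14860 genes. All were fitted in R 4.3.3 by lmFit and eBayes of limma 3.58.1 (two-sided, 2 residual and 3.43 prior degrees of freedom), which was tested on simulated data. RefSeq tables (GRCm38.p6) gave gene order and promoters; Entrez identifiers of all 6 genes matched. Alignments used Biopython 1.88 and figures matplotlib 3.10.9.

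The genes and lists were chosen with earlier results of these data known, and the motifs and the receptor reference after the values were seen. A listed gene and a motif are not reported here. Named genes are all chosen and CD20-like family genes, 5 neighbours a side, the 5 most similar genes, and up to 3 called genes per list and direction or, without any, the 2 of largest change; other genes were named after their values were seen. Fcgr1 (change -0.28), Fcgr3 (-0.24), Cd209a (-0.25), Xcr1 (0.19), Cd79b (-0.63), Cd79a (-0.34) and Thy1 (-0.71) belong to the marker lists, of which Thy1 was called lower (not without DMSO replicate 1 or JQ1 replicate 1).

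Alternatives were a variance trend, a robust prior, 3 scalings, 2 filters on signal, averaging the rows that name one gene, the replicate number as a block, and each array left out.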

Additional observations from a re-analysis of the deposited data

How the results depend on the processing

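The directions of Tmem176a, Tmem176b and Ms4a4b held under the 3 scalings, the only alternatives that could have turned them. The variance trend, robust prior, filters, row averaging and replicate block leave the difference of their group means as it is. Since their groups did not overlap, leaving out 1 array cannot turn its sign either. Ms4a6d had no value above either signal filter. Of 18 values of the chosen genes under the scalings, 15 moved by less than the SD between replicates and 3 by more, all of Ms4a6c. The number of genes lower at an unadjusted p below 0.05 was 1228, against 679 after centring and 805 after cyclic loess, and 689 to 1244 with 1 array left out, the lowest without JQ1 replicate 1. The number higher was 255, against 572 after centring, 545 after cyclic loess and 145 among genes above the median signal, and 219 to 305 with 1 array left out. A group left with a single array was assumed to spread like the other group. The causes of these shifts were not tested. Genes past the adjusted threshold in limma numbered 1, against 3 with a variance trend, 9 above the 25th percentile of signal, 50 above the median, and 0 with a replicate block or any array left out. Deviations of same-numbered samples correlated at 0.0967 across genes, so the numbers were not taken as pairs, and with a replicate block the counts were 1236 lower and 302 higher. No listed gene of the CD20-like family outside the chosen ones was called lower in limma under any alternative that kept 2 arrays a group (0 with the replicate block). The filter above the median signal of 6.02 could not call one, since the brightest mean of these genes was 4.97. The lower filter dropped those dimmer than Ms4a6d. With 2 arrays a group, the smallest p of an exact permutation test is 0.333, and the dim signals of Ms4a6d and of the other MS4A genes limit what can be said of them.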
